A study of Caenorhabditis elegans with 4 samples.

Results

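The genes described here encode the contractile apparatus of nematode muscle and its anchorage: myosins, actins, the troponin complex, giant sarcomere proteins, the integrin attachments of muscle to the body wall, and a pair of calcium channels. They were taken as a list of 44 gene symbols, of which 39 were found in the platform's probe annotation and measured on at least 3 of 4 arrays; all 39 had a value on 4 arrays, among 19214 features tested. For the other 5, lev-11 (tropomyosin), mlc-1 and mlc-2 (regulatory light chains of muscle myosin), deb-1 (vinculin) and unc-95 (a dense body protein), no probe was matched, and they were not analysed here. Caenorhabditis elegans adult males with mutant him-5, which raises the share of males among the offspring through loss of X chromosomes in meiosis, were compared with wild type on 4 two-colour arrays. Channel 2 held messenger RNA of him-5 adult males, preparations 1 to 4, and channel 1 held reference messenger RNA of wild-type worms, worded as mixed stage for preparation 1 and as mixed for the others. The labels name neither the him-5 allele nor the strain of the reference, give no age beyond adult, and do not say how many animals a preparation pooled or whether preparations came from separate cultures; the p-values below thus speak to the spread of these preparations, and that may be technical.

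In a sarcomere, thick filaments of myosin slide along thin filaments of actin, and calcium sets off contraction by binding troponin C, which through troponin I and troponin T moves tropomyosin on the thin filament. Body-wall muscle of the worm is obliquely striated, and its thin and thick filaments are tied to the cell membrane at dense bodies and M-lines, where integrins link them through the basement membrane to the epidermis and cuticle. The pharynx, the feeding pump, has muscle of its own with separate myosin and troponin genes, and adult males have sex-specific muscles of the tail that serve mating.

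Each value is a log2 ratio of males over reference, so that 0 is equality and 1 is a 2-fold excess in males. That direction is likely from the series title and the channel order but is not settled by the labels, which name no dye. Sperm genes went with it: all 10 markers of sperm were higher, with a median of 2.41, and 9 of 10 markers of oocytes and embryos were lower, with a median of -1.58. Calls were made with limma at a Benjamini-Hochberg adjusted p of 0.05 over the whole table, and 45.7% of features were called, 22.1% higher and 23.6% lower. Each array was also set to the median of its 63 ribosomal protein genes, named ribosomal centring here. That moved the median feature by -0.40 and the share of calls that were higher from 48.3% to 26.4%, so that ratios are relative to the scaling chosen. Sex, the him-5 mutation and developmental stage differ together between the 2 channels and cannot be told apart. Whole animals were measured, and a larger or smaller share of muscle cells cannot be told apart from more or less RNA per muscle cell.

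Of the 39 muscle genes, 16 were higher in males (41%, against 22.1% of all features) and 3 were lower (7.69%, against 23.6%). The median log2 ratio of the muscle genes was 0.44, beside 0.049 over all features, and single genes ran from -0.91 for tnc-2 to 2.25 for tnt-2. Called differences of at least 2-fold were seen for 11 genes, all higher, against 13.2% of all features. These 11 were tnt-2, mup-2, dim-1, act-2, tni-3, unc-15, unc-27, act-4, atn-1, pat-10 and act-3. The 3 lower genes were tnc-2, unc-112 and unc-98. On all 4 arrays 18 genes lay above 0 and 3 below, against 32.6% and 30.5% of features with 4 values. Under ribosomal centring, 5 of the 39 were higher (act-2, act-4, dim-1, mup-2 and tnt-2), against 8.45% of features. The same 3 were lower there, against 23.6% of features. Without preparation 3, 12 of the 39 were higher, against 14.2% of features, and 1 was lower, against 2901 of 19214 features.

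**Figure D1:**
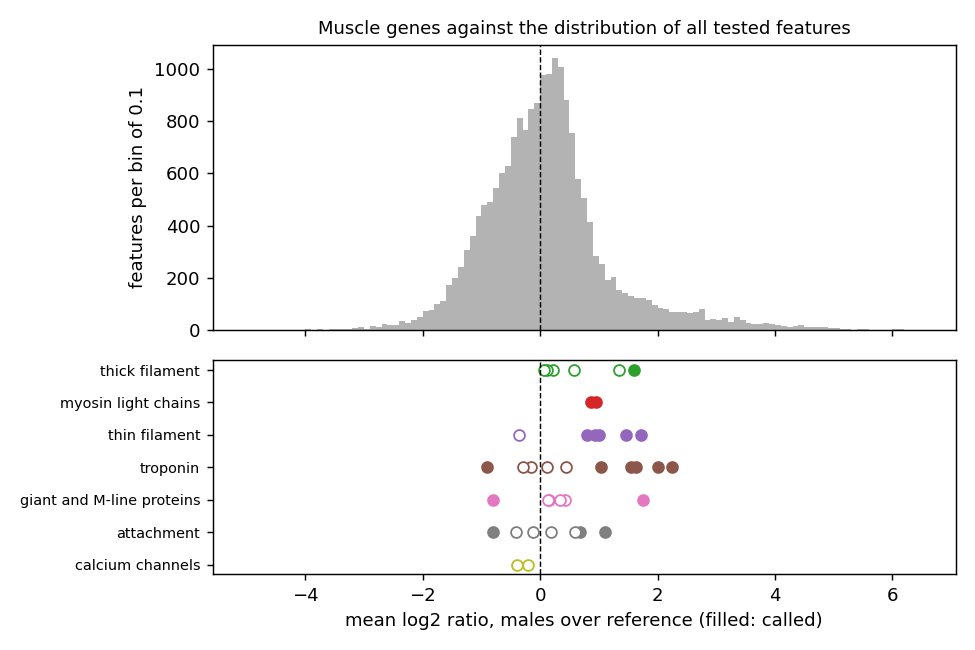
The upper panel is a histogram of the mean log2 ratio of males over reference for all 19214 features, in bins of 0.1, and the lower panel marks each of the 39 muscle genes by role, filled where called at an adjusted p under 0.05. Thin filament and troponin genes reach 1.72 and 2.25, whereas both calcium channel genes lie below 0 and are open.

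Thin filament genes were mostly higher in males: 5 of the 6 measured were called (83.3%, against 22.1% of all features higher), with a median of 0.97. Of these 5 genes, 4 are actins. All 4 actin genes of muscle rose. The ratio of act-2 was 1.20, 1.56, 2.17 and 1.96 on preparations 1 to 4, a mean of 1.72 ± 0.43 (SD, n = 4) and 3.30-fold (adjusted p = 0.000694). That of act-4 was 1.07, 1.54, 1.25 and 2.01, a mean of 1.47 ± 0.41 (SD, n = 4, adjusted p = 0.00127). Every array lay above 1 for these genes. For act-3 the arrays read 0.93, 1.18, 0.52 and 1.41, and for act-1 0.92, 1.15, 0.49 and 1.21, with means of 1.01 ± 0.38 (SD, n = 4) and 0.94 ± 0.33 (SD, n = 4) (adjusted p = 0.00566 and adjusted p = 0.00611). The genes act-1, act-2 and act-3 neighbour each other on chromosome V, with 1 coding gene between act-1 and act-3, and act-4 lies on X. The actins are nearly identical in coding sequence, so that probes may not tell them apart, and their values are uncertain for that reason. Counts of called genes that include all 4 may thus hold a shared signal more than once. The difference act-1 minus act-3 was -0.012, -0.028, -0.031 and -0.20 on the 4 arrays, so that these neighbours were hardly separated. In contrast act-2 exceeded act-3 by 0.72 ± 0.64 (SD, n = 4), most of it on preparation 3 at 1.65. An exact two-sided sign-flip test gave p = 0.13 for that difference, the smallest that 4 arrays allow (2 of 16 sign patterns).

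The gene unc-87, for an actin-bundling protein that keeps filaments in register, stood at 0.85, 0.38, 0.77 and 1.23, a mean of 0.81 ± 0.35 (SD, n = 4, adjusted p = 0.0125); it was no longer called without preparation 3, at 0.82. The other thin filament gene, unc-60, which encodes actin-depolymerising factor and cofilin in non-muscle and muscle forms, stood below 0 on each array, at -0.32, -0.72, -0.39 and -0.016 and was not called, with a mean of -0.36 ± 0.29 (SD, n = 4, adjusted p = 0.139). Under ribosomal centring, act-2 (1.32) and act-4 (1.06) were still called, whereas act-1, act-3 and unc-87 lost their calls at 0.54, 0.61 and 0.41.

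**Figure D2:**
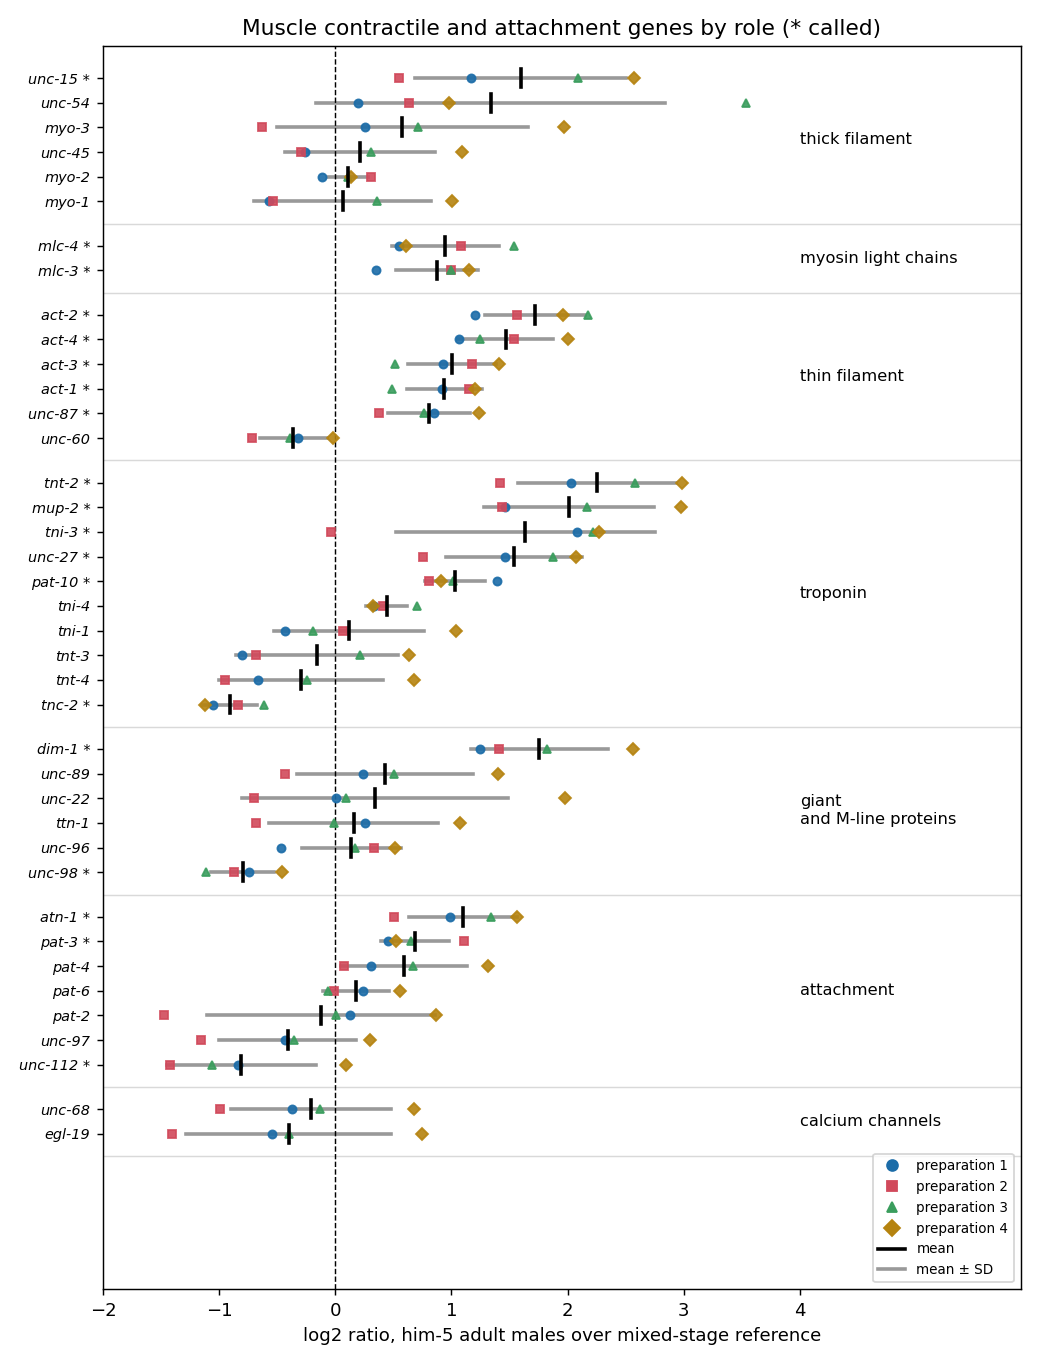
Log2 ratios of males over reference for the 39 muscle genes, grouped by role, with a point for each of preparations 1 to 4, a black bar for the mean, a grey line for the mean ± SD, and an asterisk where the gene was called at an adjusted p under 0.05. Troponin genes run from -0.91 to 2.25, and preparation 4 holds the highest point of 31 genes.

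The 10 troponin genes went both ways. Of these, 5 were higher (50%, against 22.1% of all features), 1 was lower (10%, against 23.6%) and 4 were not called, with a median of 0.74. The troponin T gene tnt-2 had the largest ratio of all muscle genes, at 2.03, 1.42, 2.58 and 2.98 on preparations 1 to 4, a mean of 2.25 ± 0.68 (SD, n = 4) and 4.77-fold (adjusted p = 0.000642). The troponin T gene mup-2, which body-wall muscle needs to attach and contract, stood at 1.46, 1.44, 2.17 and 2.98, a mean of 2.01 ± 0.73 (SD, n = 4) and 4.03-fold (adjusted p = 0.00127). Both lay above 0 on every array by more than their spread between preparations. The remaining body-wall troponin T gene, tnt-3, had arrays on both sides of 0, at -0.81, -0.68, 0.21 and 0.64 and was not called, with a mean of -0.16 ± 0.70 (SD, n = 4, adjusted p = 0.645).

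Troponin I, the inhibitory subunit, is encoded by 4 genes. The gene unc-27 stood at 1.46, 0.75, 1.88 and 2.08, a mean of 1.54 ± 0.58 (SD, n = 4) and 2.91-fold (adjusted p = 0.0022). The ratio of tni-3 was 2.09, -0.035, 2.22 and 2.27, a mean of 1.63 ± 1.12 (SD, n = 4, adjusted p = 0.0123). Preparations 1, 3 and 4 lay close together for tni-3, and preparation 2 lay apart near 0; without it the mean was 2.19. The third body-wall gene, tni-1, was not called, at -0.43, 0.064, -0.19 and 1.04, with a mean of 0.12 ± 0.65 (SD, n = 4, adjusted p = 0.721), nor was the pharyngeal gene tni-4, at 0.34, 0.41, 0.70 and 0.32, with a mean of 0.44 ± 0.18 (SD, n = 4, adjusted p = 0.063). Of these, tni-4 was called under quantile normalization (0.46), array weights (0.55) and the period of the sample titles as a random block.

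Troponin C, the calcium sensor, showed its 2 genes on opposite sides of 0. The body-wall gene pat-10 stood at 1.39, 0.81, 1.02 and 0.91, a mean of 1.03 ± 0.25 (SD, n = 4) and 2.04-fold (adjusted p = 0.00311). The pharyngeal gene tnc-2 stood at -1.06, -0.84, -0.61 and -1.12, a mean of -0.91 ± 0.23 (SD, n = 4), which is 1.88-fold below the reference (adjusted p = 0.005). No array of pat-10 overlapped with an array of the other. Under ribosomal centring, tnt-2 (1.85), mup-2 (1.61) and tnc-2 (-1.31) were still called, and tni-3 (1.23), unc-27 (1.14) and pat-10 (0.63) were not.

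Thick filament genes had positive means throughout but were called in 1 case of 6 (16.7%, against 22.1% of all features higher), with a median of 0.39. Paramyosin, the core protein of the invertebrate thick filament, is encoded by unc-15, which stood at 1.17, 0.55, 2.09 and 2.57, a mean of 1.59 ± 0.91 (SD, n = 4) and 3.02-fold (adjusted p = 0.00695). The major body-wall myosin heavy chain gene unc-54 stood at 0.20, 0.64, 3.54 and 0.98 and was not called, with a mean of 1.34 ± 1.5 (SD, n = 4, adjusted p = 0.0632). Preparation 3 was far above the others for unc-54, and the mean was 0.60 without it; without preparation 1 the gene was called, at 1.72. The minor body-wall myosin gene myo-3, whose product sits at the centre of the thick filament, ran from -0.63 on preparation 2 to 1.97 on preparation 4, with a mean of 0.58 ± 1.08 (SD, n = 4, adjusted p = 0.24). The pharyngeal myosin genes myo-1 and myo-2 were near 0, at -0.57, -0.53, 0.36 and 1.01 and at -0.11, 0.31, 0.11 and 0.13 (0.064 ± 0.76 (SD, n = 4) and 0.11 ± 0.17 (SD, n = 4)). Those values differ in spread: myo-2 varied little between arrays, while myo-1 had 2 negative and 2 positive arrays, and its mean was -0.25 without preparation 4. The myosin chaperone gene unc-45 stood at -0.26, -0.29, 0.30 and 1.09, with a mean of 0.21 ± 0.65 (SD, n = 4, adjusted p = 0.522). Under ribosomal centring, unc-15 lost its call at 1.19, and myo-1, myo-2 and unc-45 had negative means.

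Both measured myosin light chain genes were higher, against 22.1% of all features. The gene mlc-3, for the essential light chain of muscle myosin, stood at 0.35, 0.99, 1.00 and 1.15, a mean of 0.87 ± 0.35 (SD, n = 4, adjusted p = 0.00919). The gene mlc-4, for the regulatory light chain of non-muscle myosin, stood at 0.55, 1.09, 1.54 and 0.61, a mean of 0.95 ± 0.46 (SD, n = 4, adjusted p = 0.0102). Each was above 0 on all arrays, yet neither was called without preparation 3 (0.83 and 0.75) or under ribosomal centring (0.47 and 0.55). The heavy chain genes of non-muscle myosin went the other way from mlc-4: nmy-2 stood at -0.54, -2.40, -1.24 and -0.93, with a mean of -1.28 ± 0.80 (SD, n = 4, adjusted p = 0.0115) and nmy-1 at -1.29, -1.32, -1.67 and -0.037, with a mean of -1.08 ± 0.72 (SD, n = 4, adjusted p = 0.0165). No array of mlc-4 overlapped with one of either heavy chain gene. Without preparation 1, 2 or 3, nmy-1 was no longer called (-1.01 to -0.88).

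Within 4 families the pharyngeal genes can be set against the body-wall genes on the same array, where any scaling of a whole array by a constant cancels. Among the 9 body-wall genes of the families, 5 were higher (55.6%, against 22.1% of all features) and none lower (against 23.6%), with a median of 1.34. Among the 5 pharyngeal genes none was higher and 1 was lower (20%, near the 23.6% of all features), with a median of 0.064. Pharyngeal minus body-wall was negative as a mean in each family. For troponin C (tnc-2 against pat-10) it was -2.45, -1.65, -1.63 and -2.03 on preparations 1 to 4, a mean of -1.94 ± 0.39 (SD, n = 4). For troponin T (tnt-4 against the mean of mup-2, tnt-2 and tnt-3) it was -1.56, -1.67, -1.89 and -1.52, a mean of -1.66 ± 0.17 (SD, n = 4). These differences were far larger than their spread, with the body-wall side 3.83-fold and 3.17-fold ahead in its ratio. For myosin heavy chains (myo-1 and myo-2 against unc-54 and myo-3) the difference was -0.57, -0.12, -1.89 and -0.90, a mean of -0.87 ± 0.75 (SD, n = 4). For troponin I (tni-4 against tni-1, tni-3 and unc-27) it was -0.70, 0.15, -0.60 and -1.47, a mean of -0.66 ± 0.66 (SD, n = 4), with preparation 2 on the other side of 0. The exact two-sided sign-flip test gave p = 0.13 for troponin C, troponin T and the myosins, the smallest that 4 arrays allow, and p = 0.25 for troponin I, before any adjustment over the 4 families. That test cannot pass 0.05 with 4 arrays, whatever the size of a difference.

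The split was not shared by every pair of genes. Of 11 pairs of a pharyngeal and a body-wall gene, 10 had a negative mean difference, 5 were negative on all 4 arrays and 4 on 3 of 4. The pairs share genes and are not separate comparisons. The pair with a positive mean was tni-4 against tni-1, at 0.32 ± 0.73, and tnt-4 against tnt-3 was near 0, at -0.13 ± 0.27 (SD, n = 4). The pharyngeal troponin T gene tnt-4 itself stood at -0.66, -0.95, -0.24 and 0.68 and was not called, with a mean of -0.29 ± 0.71 (SD, n = 4, adjusted p = 0.401). Among 10 transcription factor genes of muscle, 5 were lower (50%, against 23.6% of all features), of the pharynx and of other muscle. The homeobox genes ceh-22, which acts in pharyngeal muscle, and ceh-34 stood at -1.02 ± 0.16 (SD, n = 4) and -0.74 ± 0.21 (SD, n = 4) (adjusted p = 0.00242 and adjusted p = 0.011), the latter not called without preparation 3 (-0.71). Of 6 measured markers of pharyngeal gland and marginal cells, 1 was higher (16.7%, against 22.1% of all features) and 2 were lower (33.3%, against 23.6%). Among them phat-5 stood at -2.25 ± 0.26 (SD, n = 4) and phat-4 at 1.51 ± 0.77 (SD, n = 4). The list was mixed, its array medians running from -0.33 to 0.40, and their part in the result was not tested.

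**Figure D3:**
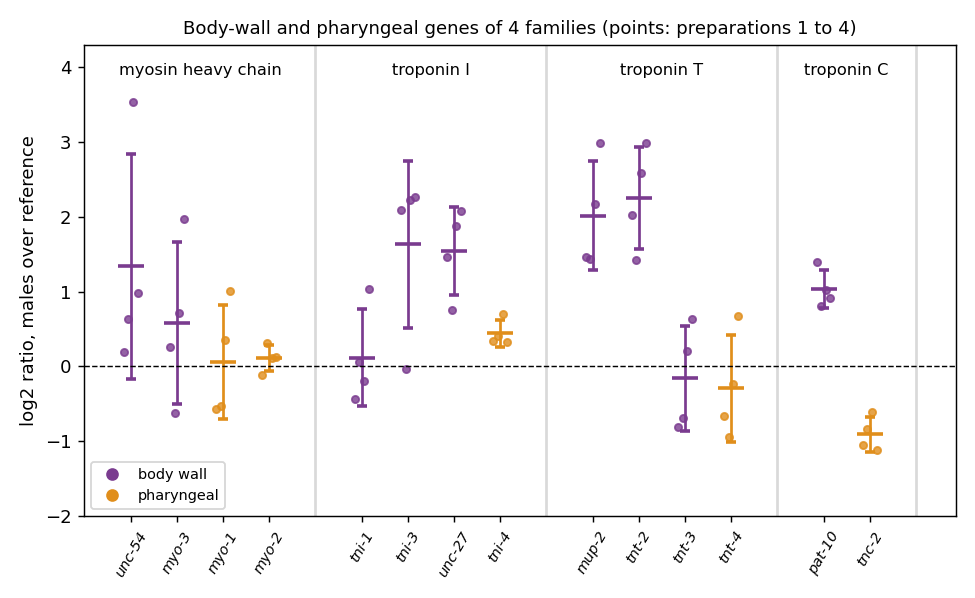
Log2 ratios of males over reference for the body-wall (purple) and pharyngeal (orange) genes of 4 families; each point is 1 of preparations 1 to 4 from left to right, the horizontal bar is the mean and the whisker the SD. The troponin C pair is separated on all arrays, and tnt-3 and tni-1 lie low among the body-wall genes at -0.16 and 0.12.

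Among 6 genes of giant, M-line and immunoglobulin-domain proteins, 1 was higher (16.7%, against 22.1% of all features) and 1 lower (16.7%, against 23.6%). The other 4 were not called. The median of the 6 genes was 0.25, and it was -0.067 without preparation 4. The immunoglobulin-domain protein gene dim-1, first known for mutations that lessen the twitching of unc-22 mutants, stood at 1.24, 1.41, 1.82 and 2.56, a mean of 1.76 ± 0.59 (SD, n = 4) and 3.38-fold (adjusted p = 0.00126). It was still called under ribosomal centring, at 1.36. The partner gene unc-22, for the giant kinase twitchin, stood at 0.0058, -0.70, 0.096 and 1.98 and was not called, with a mean of 0.34 ± 1.14 (SD, n = 4, adjusted p = 0.495). Obscurin, a giant M-line protein encoded by unc-89, read 0.24, -0.43, 0.50 and 1.40, with a mean of 0.43 ± 0.76 (SD, n = 4, adjusted p = 0.249), and the titin-like gene ttn-1 read 0.26, -0.69, -0.0093 and 1.08, with a mean of 0.16 ± 0.73 (SD, n = 4, adjusted p = 0.658). The 3 giant genes shared an order of the arrays at its ends, lowest on preparation 2 and highest on preparation 4. The 3 probes of ttn-1 had means of 0.048, 0.21 and 0.22, and each was lowest on preparation 2 and highest on preparation 4. They also differed within an array, reading -0.44, 0.19 and 0.22 on preparation 3. Without preparation 4, unc-22 and ttn-1 had negative means, at -0.20 and -0.15. The zinc-finger M-line gene unc-98 was lower, at -0.74, -0.87, -1.11 and -0.46, a mean of -0.80 ± 0.27 (SD, n = 4, adjusted p = 0.00985); without preparation 3 it was not called, at -0.69. Its M-line partner unc-96 was not called, at 0.14 ± 0.43 (SD, n = 4, adjusted p = 0.605).

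The 7 measured attachment genes had a median of 0.18, with 2 higher (28.6%, against 22.1% of all features), 1 lower (14.3%, against 23.6%) and 4 not called. Alpha-actinin, which cross-links thin filaments at dense bodies, is encoded by atn-1, which stood at 0.98, 0.50, 1.34 and 1.56, a mean of 1.10 ± 0.46 (SD, n = 4) and 2.14-fold (adjusted p = 0.00561). The integrin beta gene pat-3 stood at 0.45, 1.11, 0.65 and 0.53, a mean of 0.69 ± 0.30 (SD, n = 4, adjusted p = 0.0192), whereas its alpha partner pat-2 stood at 0.13, -1.48, 0.0029 and 0.87 and was not called, with a mean of -0.12 ± 0.98 (SD, n = 4, adjusted p = 0.793). Preparation 2 was the highest array of pat-3 and the lowest of pat-2, whose mean was 0.33 without it. Of the proteins that bind the integrin tail inside the cell, the integrin-linked kinase gene pat-4 was above 0 on each array, at 0.31, 0.073, 0.67 and 1.31, and missed the threshold, with a mean of 0.59 ± 0.54 (SD, n = 4, adjusted p = 0.0726); without preparation 2 it was called, at 0.76. The parvin gene pat-6 stood at 0.18 ± 0.28 (SD, n = 4) and the PINCH adaptor gene unc-97 at -0.41 ± 0.59 (SD, n = 4), neither called (adjusted p = 0.437 and adjusted p = 0.201). The kindlin gene unc-112 was lower, at -0.84, -1.42, -1.06 and 0.089, a mean of -0.81 ± 0.64 (SD, n = 4, adjusted p = 0.0369), with preparation 4 apart from the others just above 0. Its call was lost without preparation 1, 2 or 3 (-0.80, -0.60 and -0.72) and kept without preparation 4, at -1.11. The call of pat-3 was lost without preparation 3 (0.70), and under ribosomal centring pat-3 (0.28) and atn-1 (0.70) were not called.

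Neither calcium channel gene was called. The gene egl-19, for the L-type voltage-gated channel that carries the muscle action potential, stood at -0.55, -1.40, -0.40 and 0.75, with a mean of -0.40 ± 0.88 (SD, n = 4, adjusted p = 0.332). The ryanodine receptor gene unc-68, whose channel releases calcium from the sarcoplasmic reticulum, stood at -0.37, -0.99, -0.13 and 0.67, with a mean of -0.20 ± 0.69 (SD, n = 4, adjusted p = 0.551). Preparation 4 was above 0 and the others below for both genes; without it egl-19 was called lower, at -0.78, and without preparation 2 the mean of unc-68 was 0.057. In a further list of 27 measured genes of membrane excitation and calcium handling, none was higher, against 22.1% of all features. In that list 5 were lower (18.5%, against 23.6% of all features) and 22 were not called, with a median of -0.12. The lowest were slo-2, a potassium channel gene, at -1.54 ± 0.40 (SD, n = 4), unc-36, for an accessory subunit of voltage-gated calcium channels, at -1.31 ± 0.40 (SD, n = 4), and itr-1, for the inositol trisphosphate receptor, at -1.05 ± 0.61 (SD, n = 4) (adjusted p = 0.000965, adjusted p = 0.00199 and adjusted p = 0.0125). Many of these genes also act in neurons. Of 9 neuronal markers 6 were lower (66.7%, against 23.6% of all features) and none higher (against 22.1%), with array medians from -1.29 to -0.58. The part of neurons in the result was not tested. The count of 5 was 3 without preparation 1 or 3.

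The arrays differed in the level of the muscle genes as a whole. Over the 39 genes the array medians were 0.25, 0.073, 0.50 and 1.04 on preparations 1 to 4, beside -0.010, 0.047, 0.00072 and 0.069 over all features. Preparation 4 was the highest array for 31 of the 39 genes (79.5%), against 29.4% of features with 4 values, and preparation 2 was the lowest for 21 (53.8%), against 39.4%. The median of preparation 4 minus preparation 2 was 1.15 for the muscle genes and 0.088 for all features. That gap was unequal among the roles, at 1.91 for calcium channels, 1.46 for thick filaments, 1.46 for giant and M-line proteins, 0.43 for thin filaments and -0.16 for light chains. Among single genes it was widest for unc-22, at 2.67, and lay below 0 for 5 genes, pat-3, mlc-4, tnc-2, myo-2 and tni-4. The 11 measured genes of the epidermal fibrous organelles moved alike, with preparation 4 highest for 9 and preparation 2 lowest for 9, and the median of 8 epidermal markers was -0.72, -0.91, -0.76 and -0.014 on the 4 arrays. These counts were 8 and 8 of 11 genes of non-muscle actin and myosin, and 16 and 19 of 27 genes of excitation and calcium. They were 3 and 3 of 10 transcription factor genes, 2 and 9 of 10 sperm markers, and 1 and 2 of 10 markers of oocytes and embryos. Of the sperm markers, 2 had no value on preparation 4 and could not be highest there. The array medians of the sperm markers were 2.80, 1.47, 2.42 and 3.93, also lowest on preparation 2 and highest on preparation 4. The order was thus neither confined to muscle and epidermis nor shared by all lists. The part of such differences between preparations in the calls was not tested; the median of the 39 genes was 0.11 without preparation 4 and 0.69 without preparation 2.

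**Figure D4:**
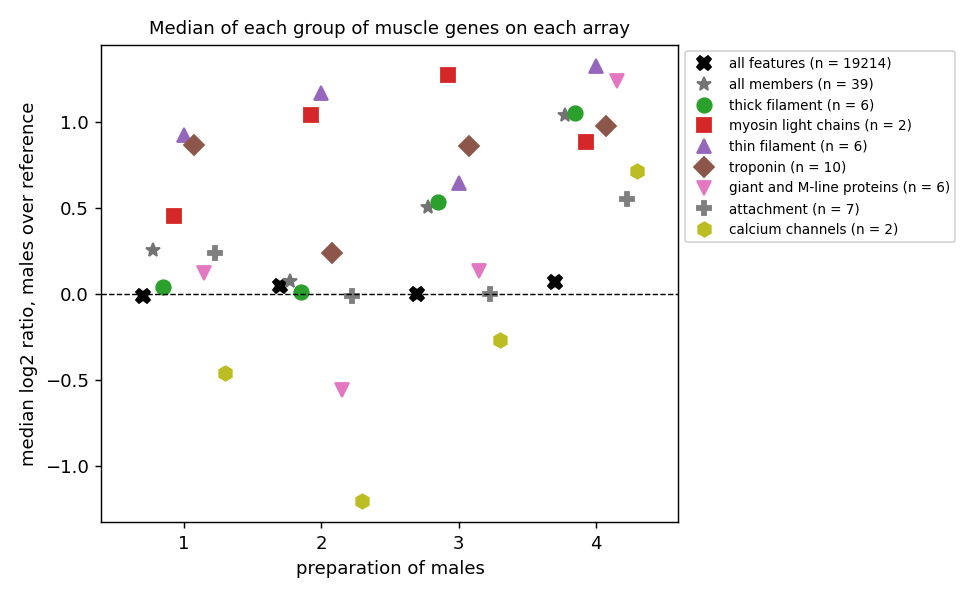
Median log2 ratio of males over reference on each array for all features, for the 39 muscle genes and for each role, with the number of genes in the key and the symbols set side by side within a preparation. All features stay near 0, whereas calcium channels run from -1.20 on preparation 2 to 0.71 on preparation 4.

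Males have a single X chromosome, and 11 of the 39 muscle genes are X-linked. Of these 11, 5 were higher (45.5%), all by at least 2-fold (tnt-2, mup-2, dim-1, unc-27 and act-4), and 1, unc-98, was lower (9.09%). Of 2273 X-linked named genes, 14% were higher, 151 genes by at least 2-fold, and 30.4% were lower. Of the 28 autosomal muscle genes 11 were higher (39.3%) and 2 lower (7.14%), beside 23.1% higher and 25.6% lower of 12786 autosomal named genes. The X-linked muscle genes divided into those 5 near or above 1.47 and 6 between -0.80 and 0.14, namely unc-96, tni-1, myo-2, tnt-3, unc-97 and unc-98. Their median therefore fell in the lower part, at 0.14, beside 0.51 for the autosomal muscle genes, -0.11 for all X-linked and 0.017 for all autosomal named genes. Under ribosomal centring, which moved the median over all features by -0.40 to -0.35, the median of the X-linked muscle genes was -0.26.

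Of 27 further sarcomere and attachment genes, 8 were higher (29.6%, against 22.1% of all features), 6 lower (22.2%, against 23.6%) and 13 not called, with a median of 0.26. The calponin-like gene cpn-3 stood at 1.70 ± 0.27 (SD, n = 4) and 3.26-fold (adjusted p = 0.000386), close to act-2, while the dense body gene uig-1 stood at -1.36 ± 0.57 (SD, n = 4) and the LIM-domain gene lim-9 at -1.02 ± 0.48 (SD, n = 4) (adjusted p = 0.00356 and adjusted p = 0.00797). The count of 8 rested on several arrays, since it was 1 without preparation 3, 3 without preparation 4 and 4 without preparation 1, and 1 under ribosomal centring. Of 10 genes of the dystrophin complex, which links the thin filament to the membrane, 1 was higher (10%, against 22.1% of all features). In the same list 3 were lower (30%, against 23.6% of all features), and the median was -0.42. The syntrophin gene stn-1 stood at -1.16 ± 0.32 (SD, n = 4, adjusted p = 0.00238), stn-2 at -0.66 ± 0.24 (SD, n = 4, adjusted p = 0.0192) and the sarcoglycan gene sgcb-1 at 0.68 ± 0.36 (SD, n = 4, adjusted p = 0.025). Without preparation 1 or 3 neither stn-2 (-0.64 and -0.67) nor sgcb-1 (0.70 and 0.75) was called, and sgcb-1 was not without preparation 4 (0.50).

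Of 11 genes of the epidermal fibrous organelles, which carry muscle tension across the epidermis to the cuticle, 5 were higher (45.5%, against 22.1% of all features). Of the same genes 1 was lower (9.09%, against 23.6% of all features), and the median was 0.32. The intermediate filament genes mua-6 and ifa-1 stood at 1.46 ± 0.59 (SD, n = 4) and 1.03 ± 0.47 (SD, n = 4) (adjusted p = 0.00288 and adjusted p = 0.00762), and the spectraplakin gene vab-10 at 0.90 ± 0.83 (SD, n = 4, adjusted p = 0.0454), not called without preparation 1, 3 or 4 (1.03, 0.85 and 0.54). The count of 5 was 2 without preparation 1 or 3, 3 without preparation 4 and 0 under ribosomal centring, where 8.45% of features were higher. Of 10 transcription factor genes of muscle none was higher and 5 were lower (50%, against 23.6% of all features), with a median of -0.55; beside the pharyngeal genes ceh-22 and ceh-34, the T-box gene mls-1, which sets a uterine muscle fate, stood at -0.71 ± 0.28 (SD, n = 4, adjusted p = 0.016) and lost its call without preparation 1, 3 or 4 (-0.70, -0.65 and -0.64). The count of 5 was 2 without preparation 1 and 1 without preparation 3. Of 11 genes of non-muscle actin and myosin 5 were lower (45.5%, against 23.6% of all features), the 2 heavy chain genes among them. A single gene was higher (9.09%, against 22.1% of all features), the intestinal actin gene act-5 at 1.92 ± 0.64 (SD, n = 4, adjusted p = 0.00108). Whether its probe tells it apart from the muscle actins was not tested. That count of 5 was 3 without preparation 1 or 2 and 2 without preparation 3.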

How the data were processed

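Per the labels, each of 4 arrays carried messenger RNA of a male preparation in channel 2 and reference in channel 1; the only group is the 4 preparations, numbered as labelled. The deposited values are log2 ratios with array medians between -0.010 and 0.069; normalization, image analysis, background correction and spot filters are not given in the sources used here, and intensities were not used here, so faint spots could not be left out. The base was read from the values: on each array 100% of ratios below 3 were whole multiples of 0.001 (within 0.01 of a step) with base 2, against 2.2% to 2.6% with other bases. Values were used as deposited, with 19424 to 19761 of 20000 probes measured per array. The number of arrays limits the precision.

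Gene names came from the platform's probe annotation, brought to current symbols of assembly WBcel235 (15655 probes with 1 symbol, 198 with several, 4147 with none; 15569 matched by gene identifier, 7 by accession, 79 kept the platform's symbol). Probes of a gene were averaged, which among the muscle genes concerned only ttn-1. The assembly was used for names, chromosomes and neighbouring genes, and positions are left out because no build is named.

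Features with at least 3 values were fitted with limma 3.58.1 in R 4.3.3 (intercept, lmFit, eBayes, two-sided, Benjamini-Hochberg over 19214 features). The test leaves out the reference's own spread, as no array held reference in both channels; without a dye swap, a bias of single genes towards 1 dye remains. Differences within families used an exact sign-flip test. The fit was tested on simulated data. Simulated with each feature's raw spread it recovered 75% of 4-fold changes, fewer than the limit set, and 13% of 2-fold changes. It passed that limit only after the moderated spread, taken from the fit itself, was used in its place, at 99% and 56%. A gene that was not called may thus still differ. The members and lists were chosen with earlier results of these data known. Named genes are all members, for each further muscle list, the called genes of a single sign over the arrays with the greatest absolute ratios (at most 3), and for each marker list at most 2. Alternatives were other scalings between arrays, robust eBayes, array weights, other limits on missing values, single probes, an adjusted p of 0.01, leaving out each preparation, and the period of the sample titles (preparations 1 and 2 against 3 and 4) as a covariate; the same period as a random block was added after the data were seen. Each period holds arrays of the only group. Plots used matplotlib 3.10.9 (Python 3.11.15).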

Additional observations from a re-analysis of the deposited data

Results flagged for a closer look

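Of 92 sets of 4 array values screened, 4 held an array far from the others by Dixon's criterion, about as many as the 1 in 20 that chance flags. The ratio of tni-3 was -0.035 on preparation 2 and 2.09 to 2.27 on the others. The median of the 10 troponin genes was 0.24 on preparation 2 and 0.86, 0.86 and 0.97 on preparations 1, 3 and 4. The epidermal collagen gene dpy-13, a marker, stood at 2.81 on preparation 4 and at 0.51, 0.90 and 0.77 on the others, and the neuronal gene unc-13 at -2.57 on preparation 2 and -1.05, -1.18 and -1.26 on the others.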

How the results depend on the processing

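The 19 called muscle genes kept their direction under all alternatives, and act-2, act-4, dim-1, mup-2, tnc-2 and tnt-2 kept their call under each of 14 alternatives at an adjusted p of 0.05 (single probes not among them). Ribosomal centring, which took 1.10 off preparation 2 and 0.041 to 0.33 off the rest, left 8 of the 19 calls, with 5 higher muscle genes (1624 features) and 3 lower. Under it the median over all features was -0.35 and that of the X-linked muscle genes -0.26. Uncalled genes turned negative: myo-1 -0.34, myo-2 -0.29, pat-6 -0.22, tni-1 -0.28, ttn-1 -0.24, unc-22 -0.056, unc-45 -0.19 and unc-96 -0.26. Higher counts there were 1 for further sarcomere genes, 0 for fibrous organelles and 0 for the dystrophin complex. With array weights pat-2 was 0.050 and tni-1 -0.068. At an adjusted p of 0.01, 2393 features were higher and 2683 lower. With medians over genes the troponin T difference was -2.30, since tnt-3 then weighs less. The remaining causes were not tested.

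Leaving out each preparation gave 2723 to 3752 higher and 2901 to 4196 lower features, the fewest without preparation 3, and 12 to 17 higher and 1 to 4 lower muscle genes. The family differences ran -1.12 to -0.53 (myosins), -0.92 to -0.38 (troponin I), -1.71 to -1.59 (troponin T) and -2.04 to -1.77 (troponin C), all negative, and the medians 0.11 to 0.69 (39 genes), 0.10 to 0.34 (X-linked) and 0.23 to 0.70 (autosomal). Higher and lower counts ran 1 to 7 and 3 to 6 for further sarcomere genes, 0 to 1 and 1 to 3 for the dystrophin complex, and 2 to 7 and 0 to 1 for fibrous organelles. Lower counts ran 3 to 6 for excitation and calcium, 1 to 6 for transcription factors and 2 to 5 for non-muscle actomyosin. Uncalled genes whose sign changed were tnt-3 (-0.43 to 0.054), pat-2 (-0.45 to 0.33), unc-68 (-0.50 to 0.057), myo-1 (-0.25 to 0.28), tni-1 (-0.19 to 0.30), ttn-1 (-0.15 to 0.44), unc-22 (-0.20 to 0.69) and unc-45 (-0.082 to 0.38).

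The period as a covariate added calls for pat-4 and unc-54, and as a random block (estimated correlation -0.22) also for tni-4. No paired analysis was possible because there is 1 group, whose replicate numbers have no partner. Without intensities, signal over background could not be examined.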
